A study of Homo sapiens with 6 samples.

Results

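Histone genes were taken as the rows of the authors' deposited table whose gene name begins with H1-, H2A, H2B, H3-, H3C, H4C, H4- or MACROH2A, which gave 43 of its 7150 genes. Of these, 35 were replication-dependent genes, which sit in the histone clusters and end their message in a stem-loop. Another 6 were variant genes: H1-10, H2AJ, H2AX, H2AZ1, H3-3A and H3-3B. The remaining 2, H2BS1 and H3-2, could be placed in neither class by their names. The current annotation holds 138 gene names of this form, of which 70 are replication-dependent, 22 variant, 40 pseudogenes and 4 antisense or divergent transcripts. No gene classed by its name as a pseudogene, antisense or divergent transcript was listed. Of the members, 41 were matched to GENCODE 29 by identifier and 2, H3C2 and H3C3, by an older symbol.

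The cells were MDA-MB-231, a human triple-negative breast cancer line labelled wild type. There were 3 libraries from cells given 0.5 µM shikonin, a plant naphthoquinone, for 24 h (the labels write the unit with a small m), set against 3 control libraries labelled with no treatment. No vehicle is named, and separate cultures are not stated for the libraries of a group, so the p-values may reflect no more than technical variation between libraries. The table holds genes past an adjusted p of 0.05 and a fold of 1.5 in the authors' DESeq2 test. It has no values per library, so depth is unknown and a level in each sample cannot be given. For each gene the implied group means were solved from its listed mean and fold, and 95% intervals were taken from its listed standard error. A positive log2 fold change carries the authors' mark "up" and is read as higher in shikonin.

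Histones H2A, H2B, H3 and H4 form the protein core around which DNA is wrapped, and linker histone H1 binds the DNA where it enters and leaves that core. Replication-dependent histone genes are transcribed mainly in S phase, and their messages end in a conserved stem-loop bound by the protein SLBP in place of a poly(A) tail. When the tail is instead added downstream, for example in cells that have left the cycle, the message becomes longer. Variant genes such as H3-3A and H2AZ1 are transcribed through the whole cycle, usually with introns and a poly(A) tail.

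The stem-loop is shown here because it is what defines the replication-dependent message and because each form found is carried by a gene whose level is given further on. It was searched by its consensus in the annotated sequence after the stop codon of GENCODE 29 protein-coding transcripts (GRCh38). It was found in 16 of the 35 replication-dependent genes and in 1 of the 6 variants, H2AX. Only 19 of the 35 have 40 or more annotated bases after the stop, so a gene without a match is in most cases one whose annotation stops at the coding sequence. Capitals mark the stem-loop, and small letters the 5 bases on each side, as DNA letters on the message strand.
H2AC18 (chromosome 1): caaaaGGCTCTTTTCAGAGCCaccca
H2BC5 (chromosome 6): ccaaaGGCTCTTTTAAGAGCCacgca
H2AC11 (chromosome 6): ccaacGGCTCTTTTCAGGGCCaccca
H3C6 (chromosome 6): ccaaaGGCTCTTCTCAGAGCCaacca
H4C11 (chromosome 6): taaaaGGCCCTTTTCAGGGCCaccct
H4C14 (chromosome 1): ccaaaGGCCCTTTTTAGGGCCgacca
H2AX (chromosome 11): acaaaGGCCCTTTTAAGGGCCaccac
These are the 7 distinct forms found. The form of H2AC18 was the commonest, in 9 genes of the H2A, H2B and H3 families, and that of H4C11 stood in 3 H4 genes. The stem-loop began 22 to 67 bases after the stop codon.

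All 43 listed histone genes were higher in shikonin-treated cells. In bulk RNA, more cells that make a message and more message per cell cannot be told apart. Replication-dependent genes had a median log2 fold change of 3.59 (range 0.91 to 6.60, the highest values being those of genes with a control mean near 0), variants one of 1.45 (range 0.96 to 1.94) and all 7150 listed genes one of 0.60. Of the genes implied as tested, 25.5% were listed as higher and 24.7% as lower. Against that, 35 of the 70 replication-dependent names (50%) and 6 of the 22 variant names (27.3%) were listed as higher, and 0 of either as lower. How many of the unlisted 35 and 16 were tested is not known. A gene near 0 in control cells could enter the table only by being high in shikonin. This may hold for the 19 replication-dependent genes with an implied control mean below 10 normalized counts, so their direction is no separate observation. The other 16, of the 70 names, could have been listed either way. The 50% counts both kinds, so it is no like-for-like share beside the 25.5%. The median log2 fold change of the 16 was 2.09 (range 0.91 to 3.84). Of the genes tested, 2.37% were listed at 8-fold or more higher, and of the listed higher genes 9.31%. Of the 16, all of them listed as higher, 5 (31.2%) were at that size, as were 0 of the 6 variants. Neither background share has the same base as the 31.2%. The 2.37% is over all genes tested, and the 9.31% includes 420 genes with a control mean below 10. Set over all replication-dependent names, the 5 are of 70. Another 18 replication-dependent genes at that size had a control mean below 10, and nothing is read from their number.

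**Figure D1:**
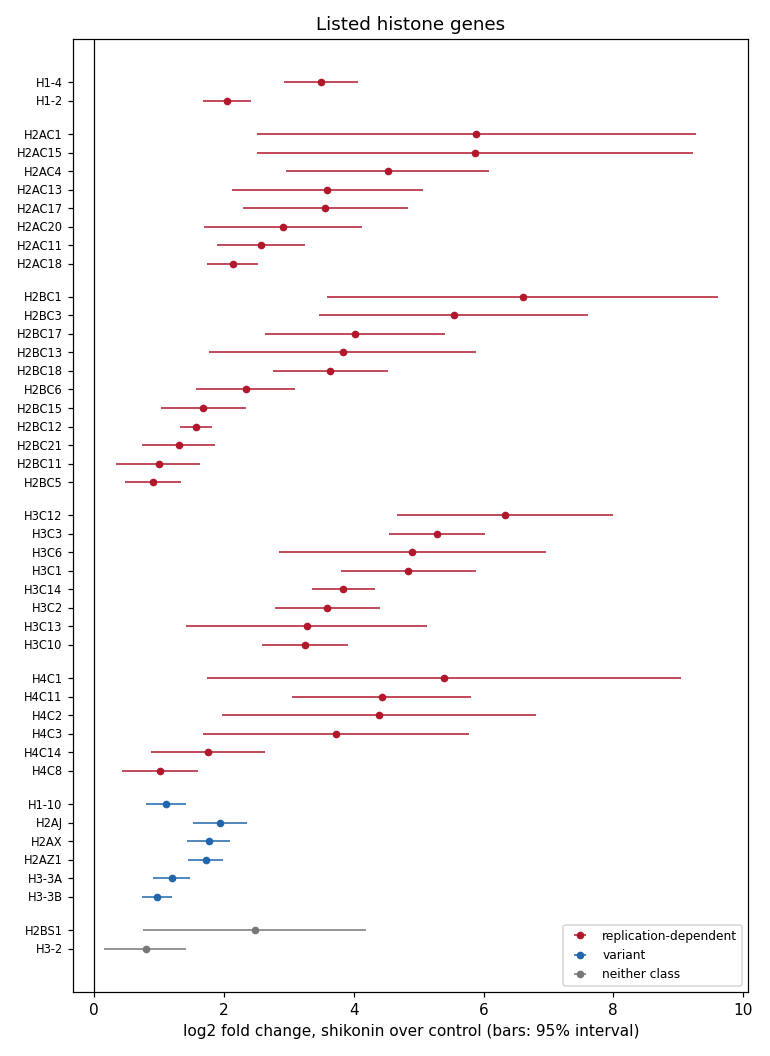
Log2 fold change of each listed histone gene, shikonin over control, from the authors' deposited table; points are the listed values and bars their 95% intervals, grouped by class and family. All 43 points lie above 0, and the variants, at 0.96 to 1.94, have the narrow intervals of well-counted genes.

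Linker histone H1 genes were represented by H1-2 and H1-4, which encode somatic subtypes that compact the chromatin fibre, from the 6 replication-dependent H1 names. H1-2 (chromosome 6, 26055787 to 26056428) had implied means of 2737 normalized counts in shikonin and 660 in control. In the authors' deposited table that is a 4.15-fold difference (3.21 to 5.36, adjusted p = 5.07e-26). H1-4 (chromosome 6, 26156354 to 26157107) stood at implied means of 339 in shikonin and 30.1 in control, and the authors' deposited table puts it 11.3-fold higher (7.61 to 16.7, adjusted p = 1.02e-31). The intervals of these 2 genes do not overlap, so H1-4 differed by a larger factor than H1-2. H1-1, H1-3, H1-5 and the testis gene H1-6 were not listed.

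Of the 17 replication-dependent H2A names, 8 were listed. H2AC18 (chromosome 1, 149842188 to 149842736) had implied means of 3277 in shikonin and 746 in control, a 4.39-fold difference (3.35 to 5.75, adjusted p = 2.16e-25) by the authors' deposited table. Every 50-base stretch of its coding sequence also occurs in another annotated gene, so its counts cannot be assigned to this copy alone. H2AC11 (chromosome 6, 27133042 to 27135291), with 96.2% of such stretches its own, was implied at 136 in shikonin and 23.0 in control. The authors' deposited table puts it 5.92-fold higher (3.72 to 9.43, adjusted p = 5.59e-13). H2AC4, H2AC13, H2AC17 and H2AC20 had implied means of 42.1 to 62.3 in shikonin and 2.31 to 6.45 in control, with folds of 7.51 to 22.9 in the authors' deposited table. H2AC1, a gene known for expression in testis, and H2AC15 had implied means of 9.36 and 9.23 in shikonin. Both were implied at 0.158 in control, which is no measurable level, so nothing is read from their fold.

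The H2B family had the most listed members, 11 of 18 names, and the widest spread. H2BC12 (chromosome 6, 27146418 to 27146798) was implied at 2326 normalized counts in shikonin and 786 in control. Its listed fold, 2.96 (2.501 to 3.505, adjusted p = 1.67e-34), has the narrowest interval of the replication-dependent genes in the authors' deposited table. Of its 50-base coding stretches, 25.9% are its own. H2BC5 and H2BC21, which are known to be expressed also outside S phase, differed by less. H2BC5 (chromosome 6, 26158146 to 26171349) had implied means of 442 in shikonin and 236 in control, and the authors' deposited table gives 1.87-fold (1.39 to 2.53, adjusted p = 0.00011). H2BC21 (chromosome 1, 149884459 to 149886652) had 564 in shikonin and 229 in control, which the authors' deposited table gives as 2.46-fold (1.66 to 3.63, adjusted p = 2.03e-05). H2BC11 lay at a similar size, 1.99-fold (1.27 to 3.10, adjusted p = 0.00533), from implied means of 102 in shikonin and 51.2 in control, per the authors' deposited table. Among H2B genes with a control mean of at least 10 the largest fold was that of H2BC18 (chromosome 1, 149782689 to 149812373), implied at 170 in shikonin and 13.6 in control, for which the authors' deposited table gives 12.5-fold (6.78 to 23.0, adjusted p = 5.41e-15). H2BC6 and H2BC15 stood, by the authors' deposited table, at 5.04-fold (2.96 to 8.60) and 3.18-fold (2.02 to 5.01). The low-count members H2BC13 and H2BC17 had implied means of 20.6 and 47.1 in shikonin and of 1.45 and 2.91 in control. H2BC3 and the testis gene H2BC1 stood at 40.4 and 15.4 in shikonin and below 1 in control.

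All 8 listed H3 genes, of 14 names, were at least 8-fold higher in the authors' deposited table. Their median log2 fold change of 4.34 was the largest of the 5 families. However, 5 of them had a control mean below 10 and may be listed only by being high in shikonin. Nothing is thus read from the rank of the family or from the 8 of 8. The members with a control mean of at least 10, H3C2, H3C10 and H3C14, stood at 9.54-fold to 14.3-fold. H3C14 (chromosome 1, 149839538 to 149841193) had implied means of 404 normalized counts in shikonin and 28.2 in control. By the authors' deposited table that is 14.3-fold (10.2 to 20.2), with the lowest adjusted p of the 43 histone genes, 4.74e-50. As for H2AC18, no 50-base stretch of its coding sequence is its own. H3C3 (chromosome 6, 26045411 to 26045821), whose coding stretches are all its own, was implied at 293 in shikonin and 7.56 in control. Its fold, per the authors' deposited table, is 38.8 (23.2 to 64.8, adjusted p = 3.24e-42). H3C10 (chromosome 6, 27810064 to 27811300), implied at 219 in shikonin and 23.0 in control, stands at 9.54-fold in the authors' deposited table (6.04 to 15.1, adjusted p = 8.44e-21). H3C2 was implied at 144.2 in shikonin and 11.97 in control, and the authors' deposited table lists it at 12.1-fold (6.89 to 21.1, adjusted p = 3.6e-17). H3C1, H3C12, H3C6 and H3C13 had implied means of 116, 93.6, 35.0 and 19.7 in shikonin. Their implied control means, 4.07, 1.17, 1.17 and 2.03, leave their folds of 9.69 to 80.2 in the authors' deposited table with wide intervals. Of the 28 pairs among these 8 genes, 16 encode identical proteins, although their coding bases were only 81.0% to 97.1% identical.

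Of the 15 replication-dependent H4 names, 6 were listed, and all 15 pairs among them encode the same protein from coding sequences 79.5% to 85.6% identical. H4C8 (chromosome 6, 26277609 to 26285638) had the highest implied means, 199 normalized counts in shikonin and 98.9 in control, and the smallest fold of the 6 in the authors' deposited table, 2.02 (1.35 to 3.02, adjusted p = 0.00143). H4C14 (chromosome 1, 149832659 to 149839767) was implied at 128 in shikonin and 38.0 in control, and its fold in the authors' deposited table was 3.37 (1.83 to 6.19, adjusted p = 0.000235). H4C11 was implied at 62.7 in shikonin and 2.92 in control and H4C3 at 23.4 in shikonin and 1.76 in control, with folds of 21.5 (8.29 to 55.8) and 13.2 (3.20 to 54.9) in the authors' deposited table. H4C11 and H4C14 share all their 50-base coding stretches with other genes. H4C2 and H4C1 stood at 18.4 and 6.59 in shikonin and below 1 in control. Values are uncertain where genes overlap in the annotation: H3C14 overlaps H4C14 and H2AC15 overlaps H2BC15 on the opposite strand, and H2AC17 overlaps H3C12 on the same strand. No strand setting is given for the counts.

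**Figure D2:**
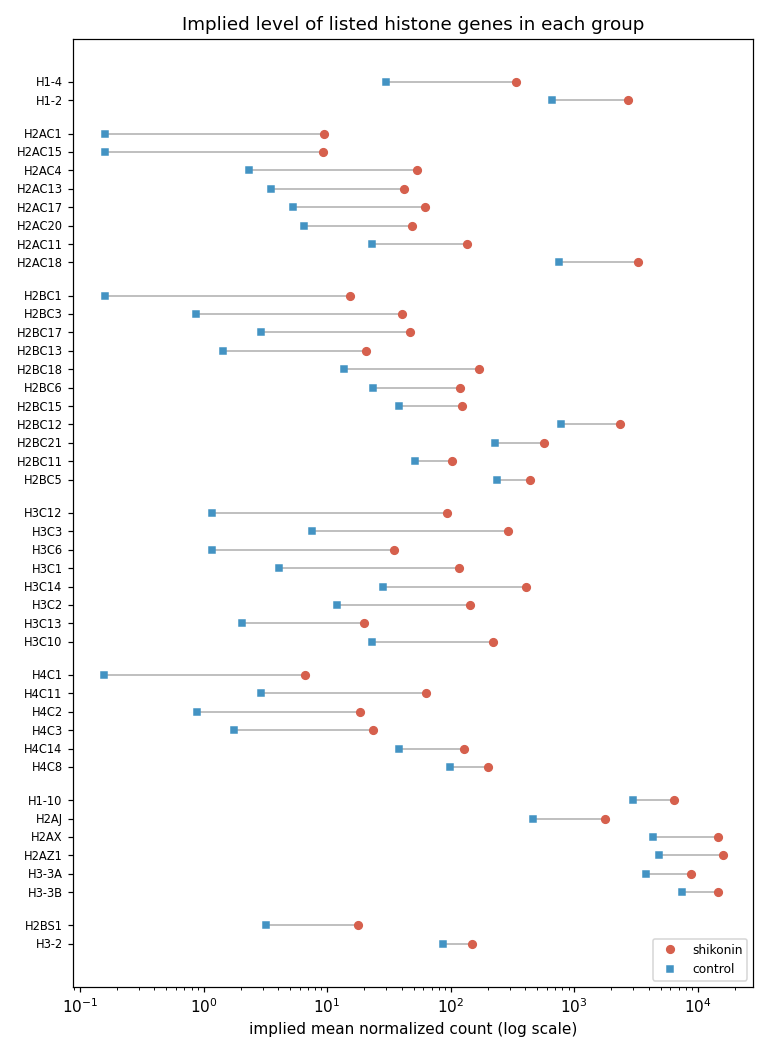
Implied mean normalized count of each listed histone gene, on a log axis, in shikonin (circles) and control (squares). Control squares near 0.16, those of H2AC1, H2AC15, H2BC1 and H4C1, mark genes with no measurable control level; counts are not divided by gene length, so rows are to be compared within a gene only.

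The 6 listed variants were well counted, with means of 1112 to 11022 normalized counts, and their intervals were narrow. H2AZ1 (chromosome 4, 99948086 to 99950388) encodes H2A.Z, which marks promoters. It had implied means of 15870 in shikonin and 4832 in control, a 3.28-fold difference (2.74 to 3.94, adjusted p = 1.78e-35) by the authors' deposited table. H2AX (chromosome 11, 119093854 to 119095467), whose protein is phosphorylated around DNA double-strand breaks, was implied at 14657 in shikonin and 4330 in control. Its fold in the authors' deposited table was 3.38 (2.70 to 4.24, adjusted p = 1.25e-24). Its message is known in both a stem-loop and a polyadenylated form. H2AJ (chromosome 12, 14774383 to 14778002), a variant linked to senescence and secretory epithelium, had the largest fold of the 6 in the authors' deposited table, 3.83 (2.87 to 5.11, adjusted p = 1.18e-18), with implied means of 1764 in shikonin and 461 in control. H3-3A and H3-3B encode the same replacement histone H3, deposited outside replication, and H3-3A has no 50-base coding stretch of its own. H3-3A (chromosome 1, 226061851 to 226072001) is listed in the authors' deposited table at 2.28-fold (1.88 to 2.76, adjusted p = 8.64e-16), from implied means of 8742 in shikonin and 3841 in control. H3-3B (chromosome 17, 75776434 to 75785893) stands there, in the authors' deposited table, at 1.94-fold (1.66 to 2.27, adjusted p = 2.73e-15), from 14547 in shikonin and 7498 in control. H1-10 (chromosome 3, 129314771 to 129316277), a linker variant, stood at 6381 in shikonin and 2975 in control, and the authors' deposited table has it at 2.14-fold (1.73 to 2.65, adjusted p = 1.33e-11). The intervals of H3-3A, H3-3B and H1-10 overlap one another and lie below those of H2AJ, with a lower bound of 1.52 on the log2 scale. H2AZ2, MACROH2A1 and MACROH2A2, variants also used in somatic cells, were not listed.

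H2BS1 and H3-2 fit neither class. H2BS1 (chromosome 21, 43565189 to 43565648), named H2BC12L in the current annotation, was implied at 17.7 in shikonin and 3.21 in control, which the authors' deposited table gives as 5.53-fold (1.68 to 18.2, adjusted p = 0.00953). It has no 50-base coding stretch of its own. H3-2 (chromosome 1, 143894544 to 143905964) is named H3-7 in the current annotation. GENCODE 29 types it as a processed transcript, with no coding sequence. H3-2 had implied means of 149 in shikonin and 86.6 in control. The authors' deposited table gives it the smallest fold of all 43, 1.72 (1.11 to 2.68, adjusted p = 0.0265).

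Replication-dependent and variant genes were then set side by side. Of the 16 genes with an implied control mean of at least 10, 9 stood above the largest variant value, and 5 of them, H1-4, H2BC18, H3C2, H3C10 and H3C14, had a 95% interval wholly above the highest variant bound of 2.35 (log2). H2BC5, at 0.91, was the only replication-dependent gene below every variant. The median of the 16 was 0.64 above that of the variants on the log2 scale. Over all 35 genes the gap was 2.14, but 19 of them had a control mean below 10. All 19 lay above every variant. Such genes may enter the table only by being high in shikonin, so nothing is read from the wider gap. No values per library are held, so the difference between the classes was not tested. The classes also differ in how well they are counted: every variant had a mean above 1000 normalized counts, while 25 of the 35 replication-dependent genes were below 100, where listed folds were larger among all higher genes too. Among listed higher genes with means of 0 to 30, 30 to 100, 100 to 1000 and above 1000, the median log2 fold change was 3.30, 1.57, 1.08 and 1.08. Replication-dependent genes in the same ranges had medians of 4.45, 3.56, 3.25 and 2.05, from 14, 11, 7 and 3 genes. Of these, 14, 4, 1 and 0 had a control mean below 10, so nothing is read from the lowest range. The medians of 3.56 and 3.25 also include such genes. How far they lie above 1.57 and 1.08 is therefore not read as a size. The 3 in the highest range, H1-2, H2AC18 and H2BC12, can be set against the 6 variants in that range, whose median was 1.45. There H2BC12, at 1.57, lay among the variants, and H1-2 and H2AC18, at 2.05 and 2.13, lay above them with intervals that overlap that of H2AJ. Added up over genes, implied counts of the replication-dependent class were 12446 in shikonin and 3082 in control (4.04-fold), and those of the variants 61960 in shikonin and 23937 in control (2.59-fold). H1-2, H2AC18 and H2BC12 made up 67.0% of the first sum in shikonin and 71.1% in control.

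**Figure D3:**
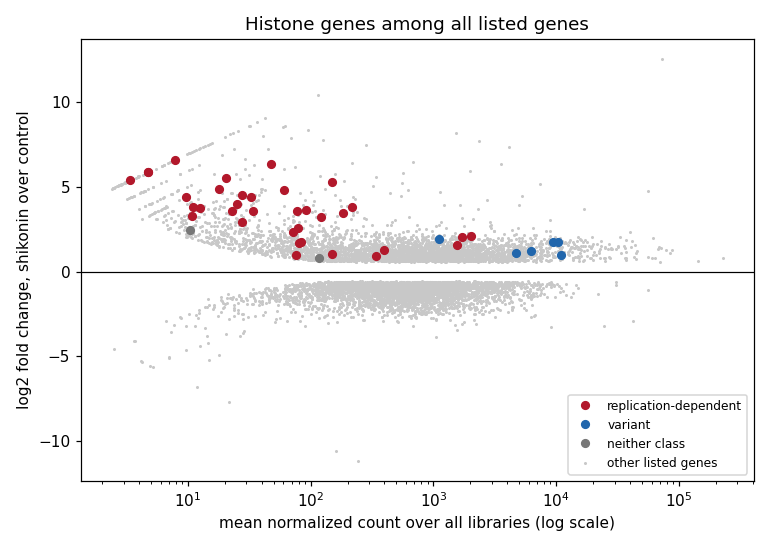
Listed log2 fold change, shikonin over control, against mean normalized count (log axis) for all 7150 listed genes, with histone genes by class. The 35 replication-dependent genes run from 0.91 to 6.60, mostly at means below 100, and the 6 variants lie at 0.96 to 1.94 at means above 1000; the gap around 0 is the authors' fold threshold.

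Short transcripts moved with this result. Among the other listed genes with a median coding transcript of 300 to 700 nt, 275 were higher and 12 lower in shikonin, and the authors' deposited table puts their median at 1.65 (log2). Among other listed single-exon genes up to 2300 nt, the longest median of a replication-dependent gene being 2250 nt, 28 were higher and 6 lower, with a median of 1.26. The part of length in the histone values was not tested. The sources used here do not say how RNA was selected. Of 26 small RNAs that carry no poly(A) tail, among them RN7SK, RMRP and TERC, 0 were listed, and whether they were tested is unknown.

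Members were compared by whether their annotated message runs on past the stem-loop, the form that carries a poly(A) tail. In 10 replication-dependent genes, H2AC11, H2BC6, H2BC15, H2BC18, H2BC21, H3C6, H3C10, H3C14, H4C8 and H4C14, a GENCODE 29 transcript extends more than 100 bases beyond it. Their median log2 fold change was 2.45 (range 1.01 to 4.90). In 6 others a stem-loop was found with at most 100 annotated bases after it, and their median was 3.71 (range 0.91 to 4.43). A control mean below 10 was found in 1 of the 10 extended genes and in 4 of those 6, and the median of the mean counts was 87.3 normalized counts in the 10 and 27.8 in the 6. The remaining 19 had no stem-loop in their annotated tail and could not be judged. The sorting is imperfect, as bases were counted only in transcripts that hold the stem-loop. H2BC5, among the 6, has an annotated tail of up to 384 bases, and H2BC11, among the 19, one of up to 569. Longer messages are thus annotated for both, and the groups are not a clean split of extended from other genes.

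Many H2A and H2B genes lie head to head and share one promoter. By RefSeq start sites (GRCh38.p14), 11 such pairs have starts 194 to 248 bases apart. In 6 pairs both genes were listed, in 5 neither was, and in 0 was just 1 partner listed. Of all replication-dependent names, 8 of 17 H2A and 11 of 18 H2B were listed. In 5 of the 6 listed pairs at least 1 partner had an implied control mean below 10. Such a partner may be listed only by being high in shikonin. Nothing is therefore read from the number of pairs listed together, and the folds of these 5 pairs are not compared. In the remaining pair H2AC11 stood at a log2 fold change of 2.57 (1.89 to 3.24) and H2BC11 at 0.99 (0.34 to 1.63) in the authors' deposited table, with no overlap of intervals.

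As a description of sequence only, 250 bases before the start of 3 members of different families are shown (RefSeq, GRCh38.p14, plus strand). Any part of promoter sequence in the listed folds was not tested. H2BC17 (chr6:27893175-27893424) shares its promoter with H2AC17, H3C3 (chr6:26045134-26045383) had the largest listed fold of the 10 replication-dependent genes with means of at least 100, and H1-4 (chr6:26156079-26156328) represents the linker genes. Capitals mark matches on either strand to TATAAA (the TATA box), CCAAT (the box bound by NF-Y), ATTTGCAT (the octamer bound by POU2F1) and AAACACA (the AC box of H1 genes).
H2BC17: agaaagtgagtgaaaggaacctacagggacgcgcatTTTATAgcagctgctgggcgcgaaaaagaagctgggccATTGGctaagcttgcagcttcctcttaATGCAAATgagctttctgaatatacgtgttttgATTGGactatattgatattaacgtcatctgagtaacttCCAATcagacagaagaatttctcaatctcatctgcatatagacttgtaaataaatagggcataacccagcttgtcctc
H3C3: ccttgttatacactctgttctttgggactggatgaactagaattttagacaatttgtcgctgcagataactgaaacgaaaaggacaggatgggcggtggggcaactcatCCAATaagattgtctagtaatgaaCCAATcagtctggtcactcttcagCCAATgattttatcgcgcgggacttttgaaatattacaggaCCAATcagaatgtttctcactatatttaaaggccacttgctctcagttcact
H1-4: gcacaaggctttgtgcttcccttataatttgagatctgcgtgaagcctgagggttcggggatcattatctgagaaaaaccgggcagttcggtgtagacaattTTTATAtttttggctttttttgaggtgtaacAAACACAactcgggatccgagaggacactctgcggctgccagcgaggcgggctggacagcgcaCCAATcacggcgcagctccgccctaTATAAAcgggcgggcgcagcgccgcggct
H2BC17 holds 3 CCAAT matches, 1 octamer and 1 TATA match in this window, H3C3 4 CCAAT matches and no TATAAA, and H1-4 1 CCAAT match, 1 AC box and 2 TATA matches. Over the whole 300-base RefSeq windows, from 250 bases before to 50 after the start, 32 listed replication-dependent genes had a sequence. CCAAT was present in 28 of these 32 (87.5%), against 34.6% of all 35116 RefSeq promoters, which include genes of every type. It was in all 28 windows of H1, H2A, H2B and H3 genes and in 0 of the 4 H4 windows. TATAAA was in 25 of the 32 (78.1%), against 11.5% of all promoters. The octamer was in 5 of 8 H2A and 8 of 11 H2B windows and in 0 of the H1, H3 and H4 windows, against 1.77% of all promoters. AAACACA was in both H1 windows and in 12.5% of the 32, against 5.64%. Of the 6 variants, 5 held CCAAT and 4 TATAAA. Head-to-head genes share most of their window, so these windows are not independent, and a match of letters is not a bound site. Unlisted replication-dependent genes were not scored, so these shares do not set the listed genes apart from them.

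**Figure D4:**
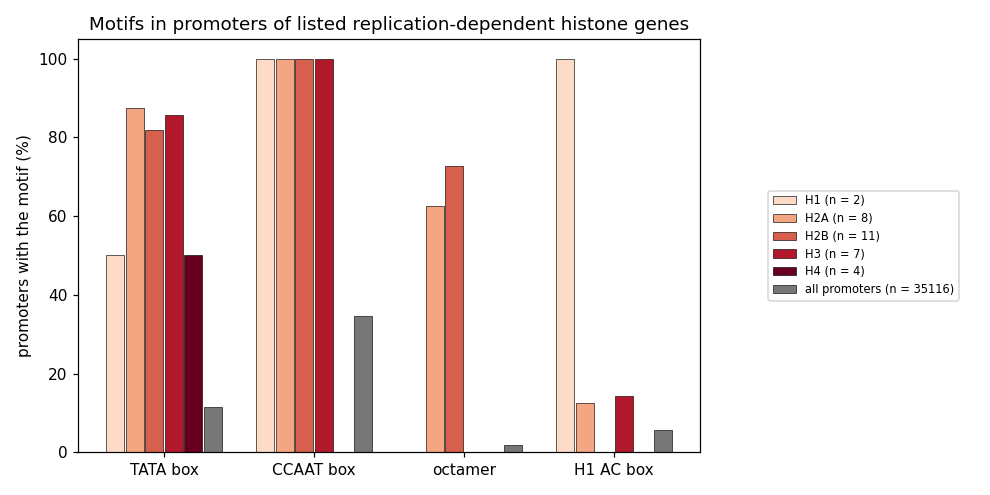
Share of promoters (%) that hold each motif on either strand, for listed replication-dependent genes by family and for all RefSeq promoters; the number of promoters is in the legend. CCAAT stands at 100% in 4 families and at 0% in H4, and the octamer appears in H2A and H2B only among these families.

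Genes that process or control the histone message were listed in both directions. Of 59 in the list, 35 were listed, 14 higher and 21 lower in shikonin, and their median in the authors' deposited table was -0.66 (log2). At 2-fold or more they were 11 higher and 11 lower. With the implied totals of both groups set equal they were 11 higher and 21 lower. That step lowers every value, so only rises could leave the count. As shares of the list, the 14 and 21 as listed are 23.7% higher and 35.6% lower. Beside them stand 25.5% and 24.7% of all genes tested, so the share of rises is near the background. SLBP, which binds the stem-loop, was not listed. NPAT, the coactivator that switches on histone genes at the start of S phase, had implied means of 154 in shikonin and 565 in control, a 3.68-fold lower level (2.71 to 5.00, adjusted p = 1.04e-15) by the authors' deposited table. By the same measure in the authors' deposited table, CASP8AP2, which sits at the histone locus bodies of the nucleus, was 2.68-fold lower (1.93 to 3.73, adjusted p = 2.17e-08), and POU2F1, the octamer factor, 4.91-fold lower (3.63 to 6.66, adjusted p = 2.08e-23). SMG1 and XRN1, which act in decay of messages, were, by the authors' deposited table, 4.94-fold (3.53 to 6.90) and 3.73-fold (2.69 to 5.16) lower. Higher were SNRPG, SNRPE, ZNF473 and LSM7, by 3.73-fold (2.96 to 4.69), 3.42-fold (2.75 to 4.25), 3.07-fold (2.41 to 3.91) and 3.01-fold (2.34 to 3.87) in the authors' deposited table. SNRPG and SNRPE encode shared Sm proteins, which also sit in the U7 particle that trims histone messages. ZNF473 binds that particle, and LSM7 belongs to a ring of proteins that takes part in message decay. Length moved with these values: the median coding transcripts of SNRPG, SNRPE and LSM7 are 521, 648 and 529 nt and that of ZNF473 4688 nt, while those of NPAT, POU2F1, XRN1 and SMG1 are 6117, 13921, 5383 and 2372 nt. Its part in the result was not tested.

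Of 54 genes for histone chaperones, import and chromatin assembly, 29 were listed, 11 higher and 18 lower, and the authors' deposited table gives them a median of -0.90 (log2). That is 20.4% and 33.3% of the list, beside 25.5% and 24.7% of all genes tested. With equal implied totals the split was 4 higher and 18 lower, where again only rises could leave the count. SRCAP and EP400, the motors of complexes that exchange H2A.Z into chromatin, were 5.96-fold (2.77 to 12.8, adjusted p = 1.49e-05) and 4.67-fold (3.67 to 5.94, adjusted p = 4.14e-34) lower in shikonin by the authors' deposited table. ATRX, which works with DAXX to place the H3-3 protein, was 3.35-fold lower (2.60 to 4.32), and INO80, another remodelling motor, 2.98-fold lower (2.31 to 3.86), as the authors' deposited table has them. Per the authors' deposited table, ZNHIT1, a small subunit of the SRCAP complex, was 2.498-fold higher (1.945 to 3.209), as were SPTY2D1 at 2.41-fold (1.87 to 3.09), RUVBL2 at 2.31-fold (1.91 to 2.80) and ASF1A, a carrier of H3 and H4, at 2.08-fold (1.63 to 2.65). CHAF1A, CHAF1B and ASF1B, which serve assembly behind the replication fork, were not listed. SRCAP, EP400, ATRX and INO80 have median coding transcripts of 10440, 12317, 10692 and 6178 nt, against 1225, 5754, 1065 and 2362 nt for ZNHIT1, SPTY2D1, RUVBL2 and ASF1A.

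**Figure D5:**
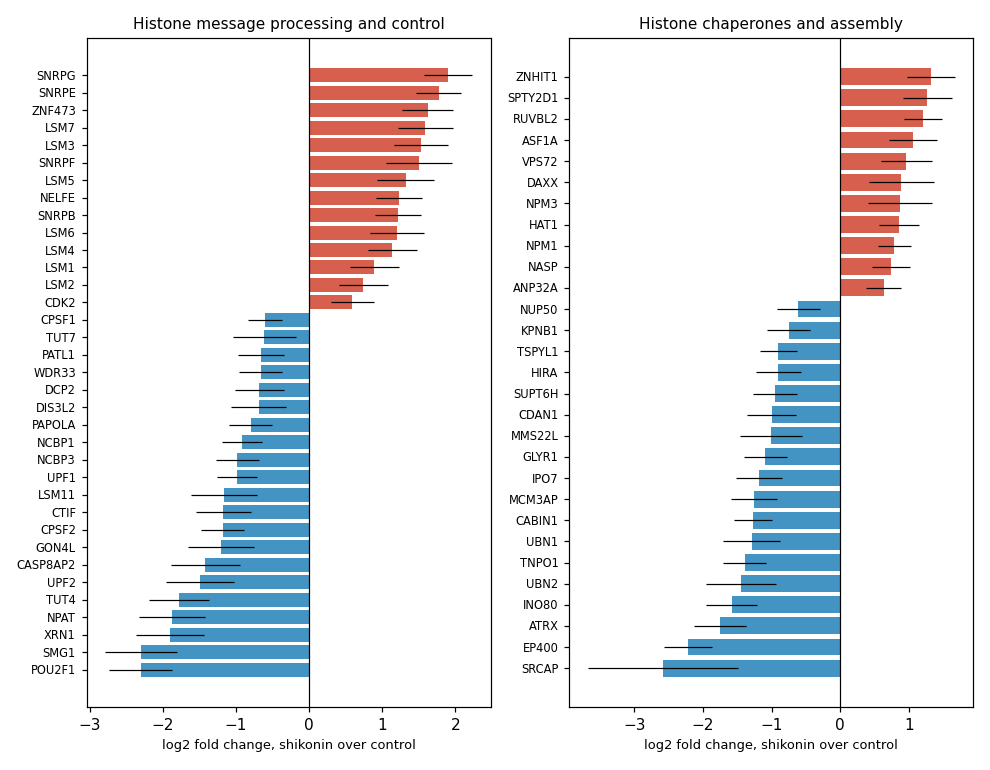
Listed log2 fold change, shikonin over control, of genes for histone message processing and control (left, 35 genes) and for histone chaperones and assembly (right, 29 genes); bars start at 0 and lines are 95% intervals from the listed standard error. Both lists run in both directions, from 1.90 for SNRPG to -2.30 for SMG1 and from 1.32 for ZNHIT1 to -2.58 for SRCAP.

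Genes of S phase itself were given as a measure beside the histones. Of 25, 13 were listed, 9 higher and 4 lower, with a median of 0.82 on the log2 scale, by the authors' deposited table. That is 36% and 16% of the list, beside 25.5% and 24.7% of all genes tested. By the authors' deposited table, TK1, which encodes thymidine kinase, was 3.05-fold higher (2.36 to 3.94) and GINS2, of the replicative helicase, 2.13-fold higher (1.53 to 2.96). CDC45, of the same helicase, and CDT1, which loads it, were 1.93-fold and 1.85-fold higher in that same table as deposited. E2F2, POLA1, MCM4 and POLE were 2.19-fold, 1.84-fold, 1.73-fold and 1.69-fold lower by the authors' deposited table. With equal implied totals 2 genes were still past the fold threshold as higher and 4 as lower. Only rises could leave this count, and unlisted genes that would newly pass as lower cannot be seen. CCNA2, CDC6, RRM1 and RRM2 were not listed. The share of cells in S phase was not measured.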

How the data were processed

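RNA-seq of 3 shikonin and 3 control libraries of MDA-MB-231 cells was used. Libraries were made with a NEBNext Ultra kit, per the labels' protocols. Per the submitters' processing notes, the build was hg38 and the tools were DESeq2, HISAT2 2.0.5 and fastp. The sources used here give no counter, annotation, strand setting or RNA selection. The authors' deposited table gives, per the file headers, a mean normalized count (a signal averaged over all libraries), a log2 fold change with its standard error, a Wald score, and a p-value with its adjusted value, for 7150 genes. It has no values per sample, so the planned fits on counts, leave-one-out and blocked fits were not run, and depth is unknown.

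The members and gene lists were chosen with earlier results of these data known. Histone genes were classed by symbol. H2BS1 and H3-2 were left unclassed after the file was seen, since their file names and current symbols pointed to different or no classes. Implied group means assume equal weight of 3 and 3 libraries; intervals are the estimate ± 1.96 standard errors. Dividing adjusted p times rank by p gave 14253 as the number tested, a step checked on simulated tables. Every listed histone gene is named. The stem-loop, shared-word, head-to-head and promoter descriptions, and which promoters are printed, were chosen after values were seen. From the other lists, the rule named up to 4 largest rises and 4 largest falls plus SLBP, NPAT and CASP8AP2. DAXX was given beside ATRX after its value was seen. A few unlisted genes were named after seeing that they were not listed. Positions, transcripts and coding sequences come from GENCODE 29 (GRCh38), promoters from RefSeq (GRCh38.p14). Shared sequence was counted in words of 50 bases over all GENCODE 29 transcripts, and a pair of genes counted as head to head with starts within 1000 bases. Python 3.11.15, pandas 2.3.3, numpy 2.4.6 and Biopython 1.88 were used.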

Additional observations from a re-analysis of the deposited data

How the results depend on the processing

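Setting the implied totals of the listed genes equal lowered every log2 fold change by 0.394. All 43 histone genes stayed above 0, as any gene listed as higher would at this shift. Past the fold threshold 40 of them stayed, while H2BC5 (0.51), H3-3B (0.56) and H3-2 (0.39) did not. That scaling left 4 chaperone genes higher, and gave the S phase genes still past the threshold, 2 higher and 4 lower, a median of -1.17. As every value is lowered, listed falls always stay and only rises can leave. Unlisted genes that would newly pass as lower cannot be seen. Nothing is therefore read from the unchanged counts of falls or from the sign of that median. At means of at least 100, 17 histone genes remained in the count, 10 of them replication-dependent, with a median of 2.09. With only members that have at least 80% of their coding words to themselves, a choice made after seeing the data, 22 replication-dependent genes were left, with a median of 4.20. Of these 22, 14 had a control mean below 10, against 5 of the 13 left out, so the higher median is not read as a stronger result. At 2-fold or more, 11 processing genes were higher and 11 lower, with a median of -0.01, so their excess of falls depends on the fold threshold. Chaperone genes at that size were 4 higher and 12 lower, with a median of -1.26. Moving H2AX to the other class, classing by position, or adding H2BS1 and H3-2 gave 36, 37 and 37 replication-dependent genes with a median of 3.59; without H2AX the variants' median was 1.19. An adjusted p below 0.001 and a mean of at least 10 kept each count within 1.5 times. No paired analysis was possible because the table holds no values per sample, and for the same reason no replicate could be left out. Low counts limit 19 replication-dependent genes, whose control level is below 10 normalized counts.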
